A study of Mus musculus with 7 samples.

Results

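The B2 and B3 short interspersed elements (SINEs) of the mouse were examined at single genomic loci in fetal testis with and without functional GLIS3. Members were the rows of the deposited RepeatMasker count table whose element name begins with B2_Mm or is B3 or B3A, a choice that uses names and no measured value. They numbered 372923 of the 3494995 LINE, SINE and LTR loci in the table. The young B2 family held 131571 loci, of which 18346 were B2_Mm1a, 23218 were B2_Mm1t and 90007 were B2_Mm2. The older family held 241352 loci, with 148427 named B3 and 92925 named B3A.

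B2 and B3 elements are relatives that arose from a transfer RNA gene and spread through rodent genomes by a copy-and-paste route that borrows the reverse transcriptase of LINE-1. An intact copy carries the A box and the B box, an internal promoter of RNA polymerase III, and young B2 copies end in a tail with polyadenylation signals. Most copies lie inside genes or near them, so RNA polymerase II also reads through them as part of introns, untranslated regions (UTRs) and long noncoding RNAs. In germ cells and early embryos, DNA methylation, histone H3 lysine 9 methylation and the ChAHP complex of ADNP, CHD4 and HP1 proteins are known to hold SINEs or other transposable elements in check.

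The RNA-Seq libraries came from whole testes of C57BL/6 embryos at E14.5, each made from a single pair of testes. There were 3 libraries labelled WT and 4 labelled Mutant, the latter homozygous for the Glis3 zf5 deletion, which is present in every cell of the embryo (n = 3 WT and n = 4 Mutant in all comparisons). Ribosomal RNA was removed, random primers were used and poly-A tails were not selected, so RNA polymerase III transcripts and unspliced RNA could enter the libraries. Strand was not kept, and a read over a SINE therefore does not tell which strand was transcribed. In whole testis, fewer cells of a type and less RNA per cell cannot be told apart.

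The table held from 3454317 to 4670830 reads per library, and the members received from 10.3% to 11.4% of them. A single LINE, SINE or LTR locus took from 0.964% to 7.02% of a library's reads, so levels were scaled with effective library sizes that limit the weight of such a locus (TMM) and are given as CPM, the usual per-library scaled count. The library labelled WT replicate 3 stood apart. Its Glis3 FPKM was 2.91, against 7.63 and 6.89 in WT replicates 1 and 2 and 2.66 to 3.86 in the Mutant libraries. Over 8 germ cell markers, the mean log2(FPKM + 0.5) was 5.75 and 5.72 in WT replicates 1 and 2, 4.44 in WT replicate 3 and from 4.03 to 4.46 in the Mutant libraries. Results that rest on this library are given with and without it. Markers of Sertoli, fetal Leydig and interstitial cells, which define the tissue, were present in every library.

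To show what the 5 subfamilies look like, the most-read copy of each is printed among copies of 150 to 220 bases whose sequence could be read from GENCODE M21 transcripts or RefSeq promoter windows, outside UTRs and coding sequence. Sequences are from GRCm38 (mm10), 5′ to 3′ on the strand of the element, and capitals mark the A box core TGGCTCAG, the B box core GTTCNANNC and the polyadenylation signal AATAAA, leaving out a signal that overlaps one already marked.
B2_Mm1a: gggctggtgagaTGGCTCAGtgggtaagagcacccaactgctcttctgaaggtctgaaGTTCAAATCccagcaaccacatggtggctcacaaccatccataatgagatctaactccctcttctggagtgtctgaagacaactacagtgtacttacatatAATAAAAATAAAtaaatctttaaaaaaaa
B2_Mm1t: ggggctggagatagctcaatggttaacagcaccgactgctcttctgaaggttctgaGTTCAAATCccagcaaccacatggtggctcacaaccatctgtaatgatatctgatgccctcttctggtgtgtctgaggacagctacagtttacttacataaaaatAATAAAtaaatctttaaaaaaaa
B2_Mm2: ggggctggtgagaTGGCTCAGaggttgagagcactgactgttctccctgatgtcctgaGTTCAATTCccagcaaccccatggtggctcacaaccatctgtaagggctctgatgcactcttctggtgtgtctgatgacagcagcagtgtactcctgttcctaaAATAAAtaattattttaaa
B3: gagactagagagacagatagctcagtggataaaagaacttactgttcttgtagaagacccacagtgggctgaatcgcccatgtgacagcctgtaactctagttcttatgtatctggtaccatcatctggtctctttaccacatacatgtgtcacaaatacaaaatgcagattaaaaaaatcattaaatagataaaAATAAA
B3A: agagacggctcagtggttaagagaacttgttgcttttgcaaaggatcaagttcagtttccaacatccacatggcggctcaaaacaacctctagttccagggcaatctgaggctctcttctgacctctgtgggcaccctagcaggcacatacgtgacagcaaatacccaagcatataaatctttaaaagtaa
The B2_Mm1a copy at chr2:153341484-153341671 (minus strand) lies in an exon of the noncoding transcript 2500004C02Rik. The B2_Mm1t copy at chr7:126791253-126791436 (plus strand) lies in an annotated exon of Ppp4c, a phosphatase gene, on the strand opposite to it. The B2_Mm2 copy at chr12:109650227-109650407 (plus strand) and the B3 copy at chr12:109648650-109648850 (plus strand) both lie in exons of Rian, an imprinted noncoding RNA that hosts small nucleolar RNAs. The B3A copy at chr7:92738059-92738249 (plus strand) lies in an exon of the noncoding gene 4632427E13Rik, also on the opposite strand. All 3 B2 copies held the B box core and AATAAA, and the B2_Mm1a and B2_Mm2 copies also held the A box core. The letters of neither box core stood in the B3 or the B3A copy, and the B3 copy held AATAAA. A copy without these exact letters may still hold a box with other letters. The groups overlapped at all of these copies except the B3 copy, which read 64.4, 71.2 and 67.9 CPM in WT and 77.6, 94.9, 80.2 and 80.2 CPM in Mutant, with a log2 fold change of 0.3 (SE 0.16, adjusted p = 0.977 by edgeR).

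The same contrast ran through all copies with a sequence. A sequence was found for 9294 members, and 15 loci covered by both sources gave identical letters. Among copies of 150 to 220 bases, both box cores on the element's own strand were found in 79.9% of 364 B2_Mm1a copies, 67.7% of 455 B2_Mm1t copies and 47.3% of 1531 B2_Mm2 copies. The shares were 5.03% of 2884 B3 copies and 1.61% of 1425 B3A copies, beside 0.831% of 7706 other loci of that length. Searched on both strands, the A box core alone was present in 86.5%, 75.2% and 61.0% of the B2 subfamilies in that order, 22.9% of B3, 21.1% of B3A and 4.3% of other loci. The B box core was present on either strand in 92.0%, 86.4% and 75.4% of the B2 subfamilies, 20.7% of B3, 9.61% of B3A and 15.9% of other loci. AATAAA was present on either strand in 88.5%, 90.5% and 72.7% of the B2 subfamilies, 41.1% of B3, 32.3% of B3A and 19.9% of other loci. The mean number of CpG sites per copy was 2.73 in B2_Mm1a, 2.17 in B2_Mm1t, 1.1 in B2_Mm2, 1.51 in B3 and 1.67 in B3A. These copies lie in exons or promoters and may differ from copies elsewhere. The search was for exact letters, so the shares do not tell how many copies kept or lost a working box.

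About as many B2 as B3 copies were inside annotated genes (54.9% and 54.3%), and 3.04% and 3.25% touched an exon. The copy ran against the strand of its host gene for 57.6% of B2 and 53.2% of B3 copies in genes, and with it for 38.0% and 42.7%. The few exonic copies took 25.4% of B2 reads and 26.3% of B3 reads, introns 64.1% and 67.9%, and intergenic copies 10.5% and 5.87%. Reads were concentrated, with the most-read 1% of copies holding 37.4% of B2 and 37.8% of B3 reads, while 177481 of all members (47.6%) had a read in any library.

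Read density, the CPM per kilobase of annotated element, ordered the subfamilies differently inside and outside genes. In introns it was 1.64 ± 0.115 for B2_Mm1a, 1.66 ± 0.0858 for B2_Mm1t, 1.98 ± 0.0684 for B2_Mm2, 2.95 ± 0.038 for B3 and 2.69 ± 0.0256 for B3A (mean ± SD of the 7 libraries). B2_Mm1a and B2_Mm1t did not differ beyond their spread there, and both lay below the other subfamilies. Outside genes the youngest copies were highest, at 0.591 ± 0.0813 for B2_Mm1a, 0.383 ± 0.0441 for B2_Mm1t, 0.305 ± 0.0337 for B2_Mm2, 0.289 ± 0.0268 for B3 and 0.272 ± 0.0296 for B3A. The last 3 neighbours in that order overlapped in their spread over libraries. Within libraries, B3 lay above B3A in each one, and B2_Mm2 lay above B3 in all but Mutant replicate 2. At 5000 bases or more from any gene, B2_Mm1a stood at 0.414 ± 0.0704 and B3A at 0.102 ± 0.0205. For the families as wholes, the B2 density was 0.654 of the B3 density in introns and lower in 7 of 7 libraries, 1.28 times it outside genes and 1.84 times it at 5000 bases or more from genes, and higher in 7 of 7 libraries in both places.

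The order outside genes did not rest on the few most-read copies. Without the 50 most-read intergenic copies of each subfamily, the densities were 0.429 ± 0.0518 for B2_Mm1a, 0.273 ± 0.0306 for B2_Mm1t, 0.244 ± 0.0268 for B2_Mm2, 0.239 ± 0.0238 for B3 and 0.202 ± 0.0248 for B3A. The share of copies with any read was also highest for B2_Mm1a, but B2_Mm2 and B3 changed places. Outside genes, reads fell on 45.0% of B2_Mm1a copies, 34.3% of B2_Mm1t copies, 26.1% of B2_Mm2 copies, 26.9% of B3 copies and 24.4% of B3A copies. Only uniquely mapped reads were counted, and near-identical young copies lose more reads under that rule than old, diverged ones. How much each subfamily lost cannot be seen in counts.

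**Figure D1:**
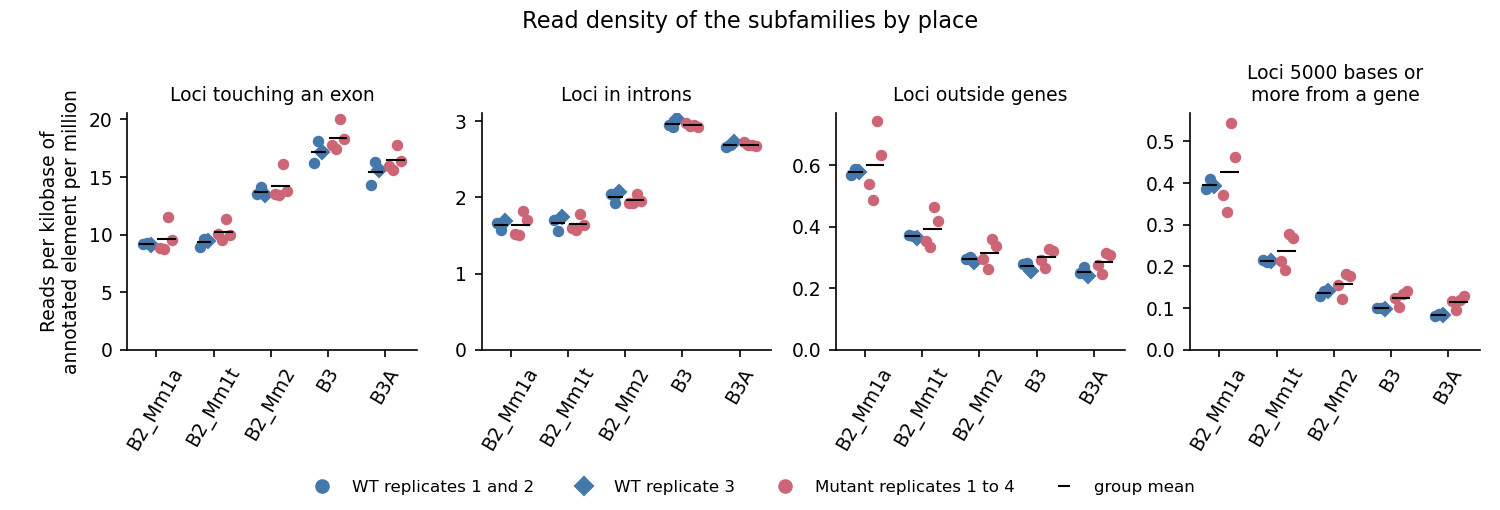
Read density (reads per kilobase of annotated element, in CPM, linear axes that differ between panels) of the 5 subfamilies in each of the 7 libraries, by place relative to annotated genes. The bars are group means; inside genes B3 and B3A lie above the B2 subfamilies, and outside genes B2_Mm1a lies highest.

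Read density of B2 copies in introns was 1.73 ± 0.0855 on the host's strand and 1.96 ± 0.0717 on the opposite strand, a gap larger than the spread over the 7 libraries. For the B3 family as a whole it was 2.83 ± 0.0466 and 2.88 ± 0.0285, within the spread over libraries. Compared within each library, the opposite strand was higher in all but Mutant replicate 1. The 2 subfamilies of the B3 family went opposite ways. Copies named B3 stood at 2.88 ± 0.0501 on the host's strand and 3.0 ± 0.0349 on the opposite strand. Copies named B3A stood at 2.73 ± 0.0447 and 2.63 ± 0.0189 in the same order. Levels of copies with and without both box cores overlapped widely. The median density, among tested copies with a sequence, was 6.98 for 725 B2 copies with both cores (quartiles 2.98 and 19.6) and 7.49 for 578 without (3.39 and 20.5). For B3 it was 6.15 for 96 copies with both cores (quartiles 2.46 and 14.7) and 8.38 for 2458 without (3.61 and 23.1).

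The first comparison asked whether the uniquely mapped reads, summed over each family, differed between WT and Mutant. No difference was detected. Exons and introns of host genes held 25.4% and 64.1% of B2 reads and 26.3% and 67.9% of B3 reads. The sums therefore cannot tell the families' own transcripts from host RNA. The B2 total was 31950, 31070 and 32240 CPM in WT replicates 1 to 3, and 30660, 30180, 34910 and 32000 CPM in Mutant replicates 1 to 4. The B3 total was 81820, 84250 and 84530 CPM in WT and 85090, 83200, 87860 and 85210 CPM in Mutant. Mutant replicate 3 was highest in both families, and the groups overlapped. The mean difference on the log2 scale, Mutant over WT, was 0.006 for B2 (two-sided exact permutation test, p = 0.943) and 0.031 for B3 (exact p = 0.286), where the smallest p that 3 against 4 libraries allow is 0.0286.

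Each subfamily sum was also tested with edgeR's quasi-likelihood test among all 871 element names, of which 1, or 0.115%, passed an adjusted p of 0.1 and 137 had an unadjusted p under 0.05. None of the 5 passed. The log2 fold change was 0.025 (SE 0.077) for B2_Mm1a, 0.029 (SE 0.055) for B2_Mm1t, 0.0 (SE 0.046) for B2_Mm2, 0.028 (SE 0.032) for B3 and 0.036 (SE 0.035) for B3A, with adjusted p-values (edgeR) from 0.607 to 0.993. The 95% intervals of the log2 fold change ran from -0.148 to 0.198 for B2_Mm1a, -0.093 to 0.152 for B2_Mm1t, -0.103 to 0.104 for B2_Mm2, -0.043 to 0.099 for B3 and -0.043 to 0.114 for B3A. The median over all 871 names was 0.076, so all 5 subfamilies lay below it. Without WT replicate 3 none of the 5 passed, with log2 fold changes from -0.004 to 0.037.

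**Figure D2:**
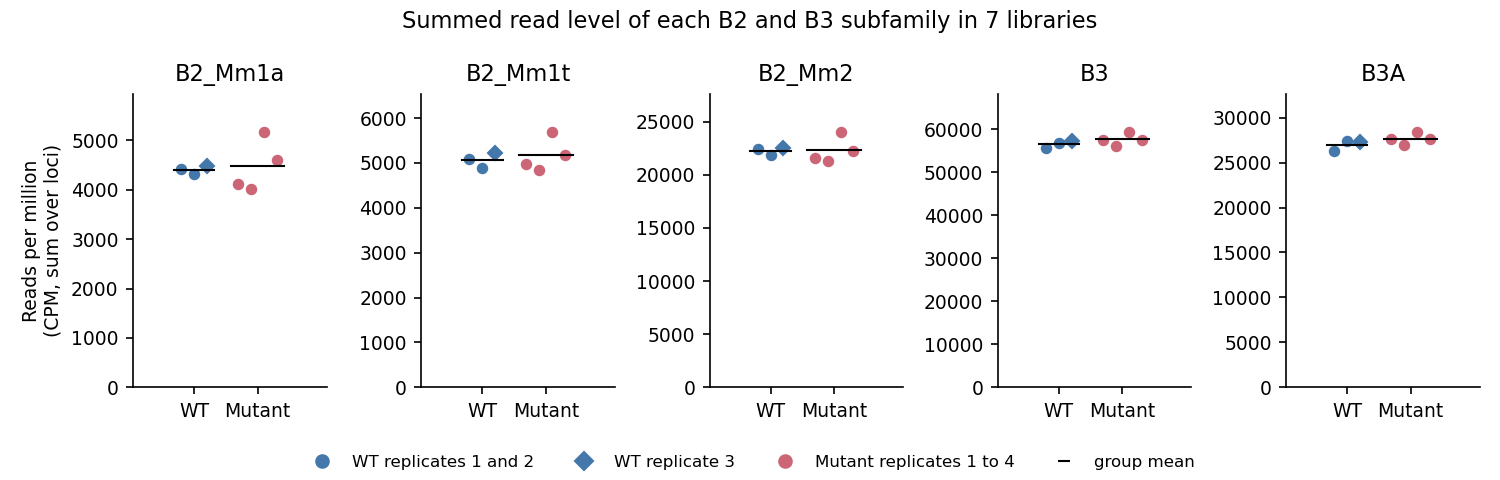
Summed level (CPM, linear axis from 0, a separate axis per panel) over all loci of each subfamily, for 3 WT and 4 Mutant libraries, with group means as bars. WT and Mutant overlap in every panel, and Mutant replicate 3 is the highest library in each.

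Young and old families were next set against each other within each library, which needs no scaling between libraries. The ratio of B2 to B3 reads was 0.390, 0.369 and 0.381 in WT and 0.360, 0.363, 0.397 and 0.376 in Mutant. The groups overlapped and the log2 difference was -0.024 (exact permutation test, p = 0.571). It was -0.031 for exonic copies (exact p = 0.457), -0.022 for intronic copies (exact p = 0.629) and -0.086 for intergenic copies (exact p = 0.2). It was larger at 5000 bases or more from genes, where the ratio was 0.900, 0.933 and 0.945 in WT and 0.744, 0.763, 0.905 and 0.789 in Mutant, with overlap (log2 difference -0.214, exact permutation p = 0.0857).

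A difference in place was seen far from genes. Copies at 5000 bases or more from any gene took 1.40%, 1.39% and 1.36% of B3 reads in WT and 1.78%, 1.49%, 1.81% and 1.99% in Mutant. All 4 Mutant libraries lay above the 3 WT libraries, and the exact permutation p was 0.0571. For B2 the share was 3.24%, 3.52% and 3.37% in WT and 3.68%, 3.13%, 4.12% and 4.18% in Mutant, where the groups overlapped (exact p = 0.257). All other loci of the table were likewise higher in every Mutant library, at 3.62% ± 0.0671 (SD, n = 3) in WT and 4.72% ± 0.39 (SD, n = 4) in Mutant (exact permutation p = 0.0571), so the difference was not particular to B3. Without the 50 most-read distant copies, the B3 level far from genes still did not overlap between groups, at 1016, 1043 and 1015 CPM in WT and 1384, 1110, 1445 and 1565 CPM in Mutant. The share outside genes at any distance overlapped between groups for both families. It was 10.3% ± 0.398 in WT and 10.8% ± 1.02 in Mutant for B2 (exact p = 0.457), and 5.59% ± 0.323 and 6.11% ± 0.489 for B3 (exact p = 0.2). For all other loci of the table this share was 8.45% ± 0.262 in WT and 9.76% ± 0.399 in Mutant. There every Mutant library lay above every WT library (exact permutation p = 0.0286).

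Single loci were then tested. Of the members, 66193 averaged 1 read or more over the libraries, 21134 of them B2 and 45059 B3, and the test ran over all 464695 loci of the table that met this filter. With edgeR's quasi-likelihood test at an adjusted p of 0.1, 9 members were higher and 9 lower in Mutant, or 0.0136% each way. Over all loci tested, 0.0217% were higher and 0.0628% lower. Of the 18, 6 were B2 (2 higher, 4 lower) and 12 were B3 or B3A (7 higher, 5 lower). An unadjusted p under 0.05 was found for 2772 members, or 4.19%. The share over all loci tested is not given here, so this count does not set the members apart from other loci. Groups did not overlap, with Mutant higher, at 1719 members (2.6%), against 2.97% of all loci, and with Mutant lower at 2082 members (3.15%), against 3.03%. The median log2 fold change was -0.043 over tested B2 loci and -0.022 over tested B3 loci, beside 0.003 over all loci tested. With DESeq2 in place of edgeR 1 member passed. Among loci with a mean of at least 10 reads none did by edgeR, and 468 of those 7746 members had an unadjusted p under 0.05. Without the share over all loci of that depth, the 468 are no sign of a change in the members.

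**Figure D3:**
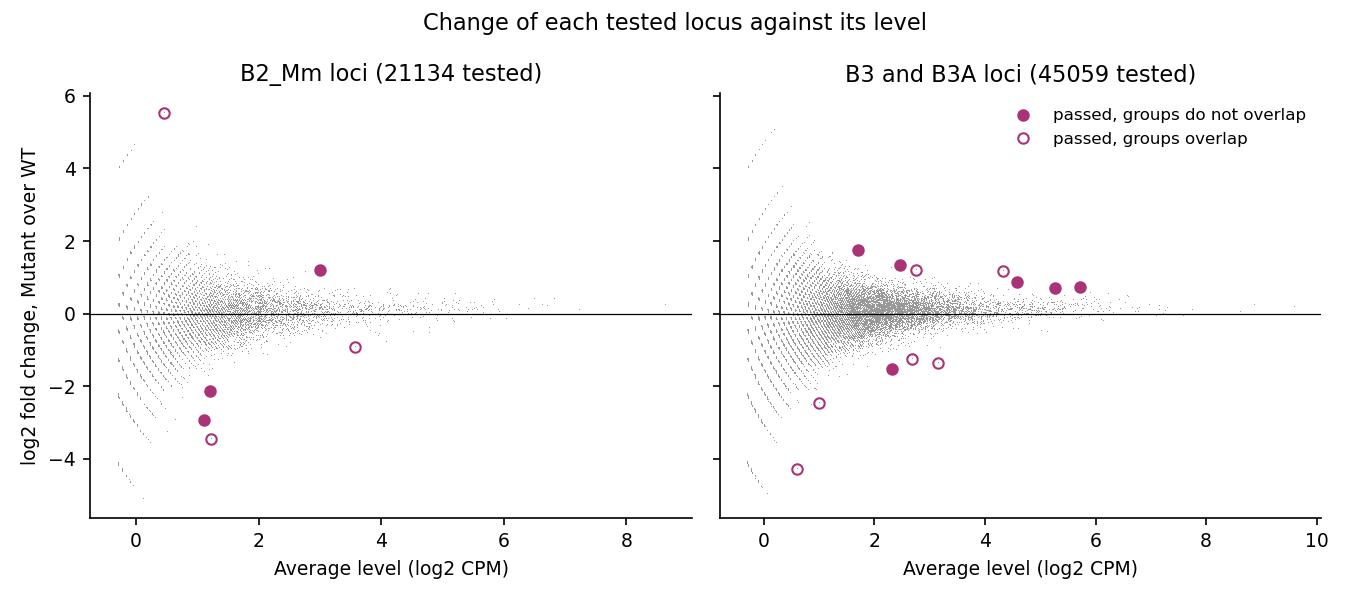
The log2 fold change (Mutant over WT, edgeR) of each tested locus against its average level in log2 CPM, for 21134 B2_Mm loci and 45059 B3 and B3A loci. Purple marks the 18 loci past an adjusted p of 0.1, filled where the 2 groups do not overlap; most of them lie at the edge of the cloud of grey points.

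At 9 of the 18 loci the groups did not overlap, 6 with a rise in Mutant and 3 with a fall. The most-read of the rises was at a B3 copy in the UTR of Star, which carries cholesterol into mitochondria for steroid synthesis in fetal Leydig cells (chr8:25813706-25813917, plus strand). It read 32.3, 45.9 and 35.2 CPM in WT and 70.7, 51.8, 67.5 and 61.7 CPM in Mutant, with a log2 fold change of 0.74 (SE 0.17, adjusted p = 0.0204). The host's FPKM was 134 ± 24.7 in WT and 185 ± 18.6 in Mutant, with overlap. Over 5 fetal Leydig markers, of which Star is one, the mean log2(FPKM + 0.5) was 8.29 ± 0.346 in WT and 8.81 ± 0.12 in Mutant, and the part of cell number in the rise at this locus was not tested. A B3 copy in the UTR of Mtfp1, a mitochondrial fission gene, read 21, 30.2 and 33.9 CPM in WT and 41.1, 38.4, 56.4 and 47.3 CPM in Mutant (chr11:4091779-4091976, plus strand; log2 fold change 0.69, SE 0.18, adjusted p = 0.0971). Its host stood at 11.6 ± 0.841 FPKM in WT and 15.7 ± 0.886 FPKM in Mutant, without overlap (log2 fold change 0.43, adjusted p = 0.133 by limma). A B3 copy in the UTR of Nfkb1, which encodes a subunit of NF-kappa-B, read 11.3, 18.9 and 18 CPM in WT and 24.2, 25.9, 26.6 and 39.2 CPM in Mutant (chr3:135669208-135669390, plus strand; log2 fold change 0.86, SE 0.19, adjusted p = 0.0179).

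The other rises were at low level. The B3A copy in the UTR of Ushbp1 read 3.0, 2.62 and 2.5 CPM in WT and 5.99, 6.55, 7.29 and 7.78 CPM in Mutant (chr8:71385381-71385555, minus strand; log2 fold change 1.33, SE 0.32, adjusted p = 0.0581). The B3 copy in the UTR of Greb1, an oestrogen-responsive gene, read 0.428, 1.74 and 1.5 CPM in WT and 2.0, 3.27, 6.97 and 4.04 CPM in Mutant (chr12:16671416-16671573, minus strand; log2 fold change 1.76, SE 0.44, adjusted p = 0.0878). Greb1 itself stood at 2.08 ± 0.164 FPKM in WT and 2.92 ± 0.232 FPKM in Mutant. The only young copy among these rises lay outside genes, 1154 bases from Virma, a gene of the m6A RNA methyltransferase (B2_Mm1a, chr4:11484612-11484804, minus strand). It read 5.14, 3.49 and 4.24 CPM in WT and 10.8, 7.44, 11.1 and 10.4 CPM in Mutant, with no overlap (log2 fold change 1.19, SE 0.27, adjusted p = 0.0276).

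The 3 falls without overlap lay outside exons. A B2_Mm1a copy in an intron of Il33, a cytokine gene, fell in all 4 Mutant libraries (chr19:29945162-29945349, plus strand). It held 13, 11 and 13 reads in WT and 2, 3, 0 and 0 reads in Mutant, with a log2 fold change of -2.94 (SE 0.6, adjusted p = 0.00329). The FPKM of Il33 was 3.43 ± 0.558 in WT and 3.38 ± 0.56 in Mutant, with overlap. The copy lies 1.27 megabases from Glis3 on the same chromosome. A B2_Mm2 copy in an intron of Abcf2 held 16, 10 and 11 reads in WT and 3, 2, 3 and 1 reads in Mutant (chr5:24569755-24569926, plus strand; log2 fold change -2.13, SE 0.53, adjusted p = 0.0833). Abcf2, an ATP-binding cassette gene, stood at 83.5 ± 13.2 FPKM in WT and 64.0 ± 3.36 FPKM in Mutant, without overlap between groups. The third was a B3 copy 5618 bases from the nearest gene, at 12.2, 4.36 and 3.49 CPM in WT and 2.0, 3.27, 3.49 and 0.865 CPM in Mutant (chr3:34766259-34766457, minus strand; log2 fold change -1.52, SE 0.33, adjusted p = 0.0093). WT replicate 3 and Mutant replicate 3 were equal there to 3 significant digits.

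Few of these calls held when any single library was left out. The copy in Il33 was called in all 7 such fits, with log2 fold changes from -3.77 to -2.55. The Nfkb1 copy was called in 5 of 7, not without WT replicate 1 or Mutant replicate 4. The Star copy was called in 4, not without WT replicates 1 or 3 or Mutant replicate 1. The B3 copy nearest Gm38509 was also called in 4, not without WT replicate 1, where its log2 fold change was -0.7, or without Mutant replicates 1 or 4. The copies of Mtfp1 and near Virma were called in 2 of 7, and those of Greb1, Ushbp1 and Abcf2 in 1. All 9 kept their direction in all 7 fits.

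At the other 9 loci past the threshold the groups overlapped; they are named because they passed, with their values in view. The B2_Mm1a copy 140 bases from Gas5, a noncoding host of small nucleolar RNAs, held 52, 56 and 76 reads in WT and 0, 0, 51 and 58 reads in Mutant (chr1:161038679-161038850, minus strand). Mutant replicates 1 and 2 thus had no read where the other libraries had over 50. Those same libraries were the only ones with reads, 9 and 12, at a B2_Mm1t copy 188 bases from Trim34b (chr7:104337097-104337289, minus strand), and against a floor of 3 counts over the WT group the Mutant mean there was at least 6.18-fold higher. They were also the highest, at 26.5 and 50.6 CPM, for a B3 copy in the UTR of Zfp386 (chr12:116063130-116063327, minus strand), where the other libraries read from 9.48 to 14.7 CPM. A B2_Mm2 copy in the UTR of Clec2g rested on WT replicate 2, with 38 reads against 0 to 2 in the other libraries (chr6:128983209-128983397, plus strand). A B3A copy 3120 bases from Pou5f1, a pluripotency gene of gonocytes, rested on WT replicate 1, with 31 reads against 0 to 6 (chr17:35502802-35502898, minus strand), and its log2 fold change of -2.46 turned to 0.65 without that library. Without WT replicate 2 the Clec2g copy had a log2 fold change of -0.23, against -3.45 with it. A B3 copy 661 bases from Gm1943 held 46, 0 and 0 reads in WT and 78, 35, 0 and 1 in Mutant (chr8:109339815-109340030, minus strand). The remaining 3 were B3 copies that read lower in Mutant, in an intron of Atp2b2 (4, 20 and 0 reads in WT, 1, 0, 0 and 0 in Mutant), 29 bases from Gm13192 (72, 12 and 24 reads, then 16, 11, 17 and 4) and in an intron of 4930447C04Rik (79, 64 and 10 reads, then 20, 20, 14 and 12).

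**Figure D4:**
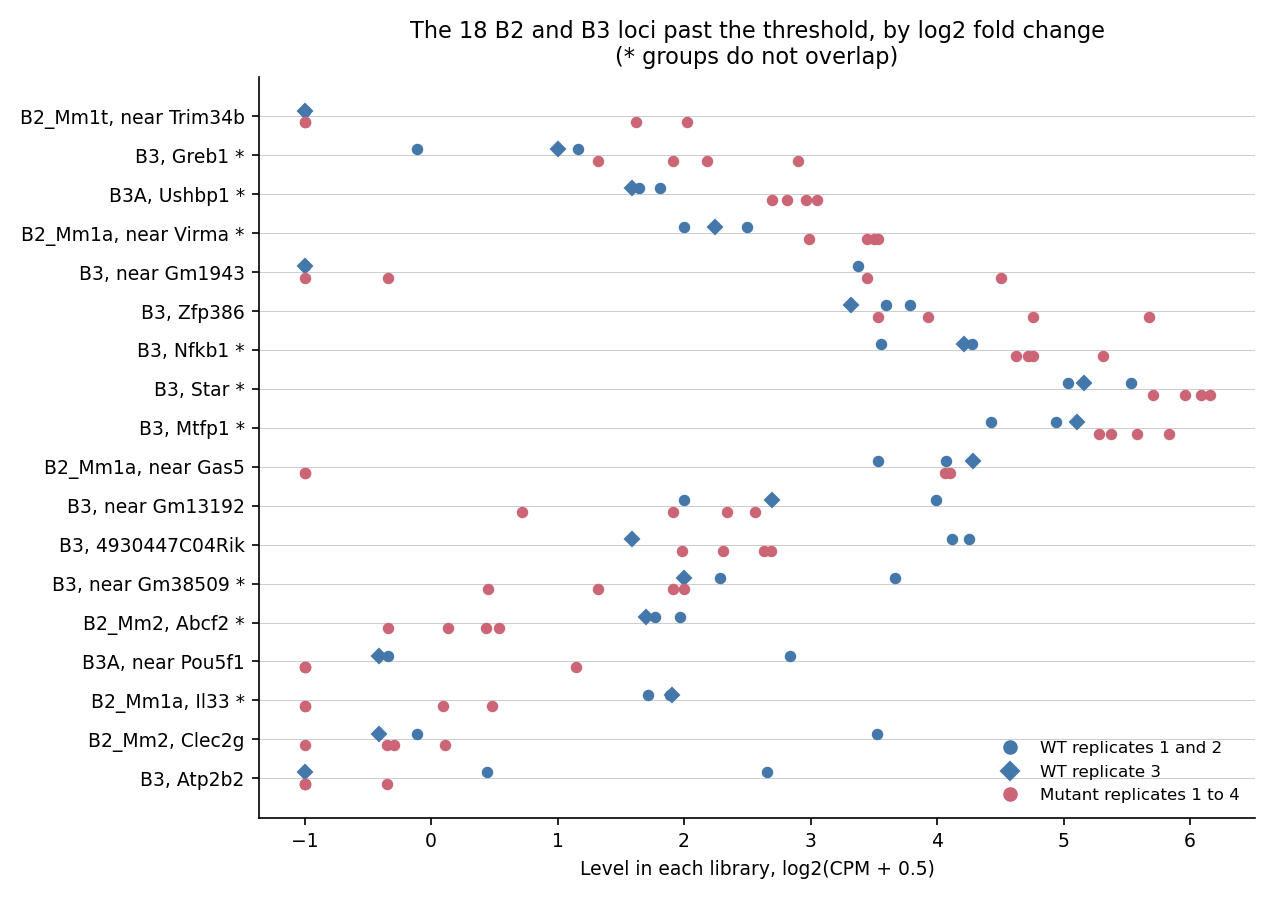
Level, as log2(CPM + 0.5), of the 18 B2 and B3 loci past the threshold in each library, ordered by log2 fold change and labelled with the host gene or the nearest gene. An asterisk marks the 9 loci whose groups do not overlap; at several others 1 or 2 libraries lie far from the rest.

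Without WT replicate 3 the count of called members was 34 of 66225, with 14 higher (0.0211%) and 20 lower (0.0302%) in Mutant. All loci tested without that library gave 0.022% higher and 0.119% lower. Only 11 of the 18 loci were among the 34. The loci and hosts named next were picked out after their values were seen.

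Of the 20 lower loci, 6 lay in 4 genes, Mael, Piwil4, Tex11 and 4930447C04Rik, with 3 of the 6 in the last. How often tested copies lie in genes of this kind was not counted. The library left out had been set apart for its low germ cell markers, which favours falls at copies in germ cell genes. With all 7 libraries, the copies in Mael, Piwil4 and Tex11 were not called. An intronic B3 copy in Mael, a piRNA pathway gene, read 1.07 and 2.62 CPM in WT replicates 1 and 2, 0.25 CPM in WT replicate 3 and from 0.0 to 0.288 CPM in Mutant (chr1:166237443-166237636, minus strand; log2 fold change without WT replicate 3 -4.06, adjusted p = 0.0758 from edgeR). An intronic B2_Mm1t copy in Piwil4, a PIWI protein of gonocytes, read 1.5 and 3.78 CPM, 0.749 CPM and 0.0 to 0.317 CPM in the same order (chr9:14735806-14735988, minus strand; -3.33, adjusted p = 0.0235). A B3 copy in the UTR of Tex11, a meiosis gene, read 52.7 and 46.5 CPM, 25.2 CPM and 20.2 to 35.9 CPM (chrX:100838858-100839002, minus strand; -0.79, adjusted p = 0.0361).

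The other 3 of these 6 were B3 copies in introns of 4930447C04Rik, a gene needed for meiotic chromosome pairing. The one with the lowest adjusted p read 16.9 and 18.6 CPM in WT replicates 1 and 2, 2.5 CPM in WT replicate 3 and 3.46 to 5.95 CPM in Mutant (chr12:72897449-72897637, minus strand; log2 fold change -1.86, adjusted p = 1.41e-08 without WT replicate 3). Hosts of the lower copies did not all differ. Without WT replicate 3 the host's log2 fold change was -0.12 for Tcaim and -0.01 for Chek2, which also hold a lower copy, and -2.31 for Mael. Mael, itself one of the germ cell markers, stood at 67.1 and 128 FPKM in WT replicates 1 and 2, 18.8 FPKM in WT replicate 3 and 12.9 to 30.6 FPKM in Mutant, and Tex11 at 22.8 and 17.3, 9.71 and 8.3 to 10.6 FPKM. All 8 germ cell markers had an adjusted p under 0.05 in limma without WT replicate 3, against 0 of 8 with all libraries. That library had been set apart by the levels of these same markers, so leaving it out favoured this outcome. It is no independent support. The part of the markers' fall in the falls at these loci was not tested.

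Across all tested copies with a single host gene that had an FPKM value, the changes of copies and hosts were weakly correlated. Pearson's r between the log2 fold change of the copy and of the host was 0.2 over 2862 exonic B3 copies, 0.14 over 1363 exonic B2 copies, 0.12 over 33822 intronic B3 copies and 0.09 over 14743 intronic B2 copies. It was higher in exonic copies with more reads, at 0.35 over 1041 exonic B3 copies and 0.27 over 411 exonic B2 copies with a mean of at least 10 reads. At that depth it was 0.15 over 3965 intronic B3 copies and 0.1 over 1032 intronic B2 copies. These are descriptions across loci of the same 7 libraries, which are not independent, and an exonic copy can share reads with its host's own FPKM. In hosts whose FPKM was lower in every Mutant library than in every WT library, the median log2 fold change was -0.13 for 1921 B2 copies and -0.14 for 3574 B3 copies. In hosts that were higher without overlap it was 0.08 for 714 B2 and 0.09 for 1987 B3 copies. In hosts whose groups overlapped it was -0.05 for 13471 B2 and -0.02 for 31123 B3 copies.

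None of the 5 highest copies of each family, among those of at least 100 bases, passed the threshold. The highest was a B3 copy in an exon of Nedd4, a ubiquitin ligase gene, at a density of 3530 (chr9:72669894-72670111, minus strand). It read 652, 743 and 743 CPM in WT and 843, 781, 858 and 772 CPM in Mutant, which did not overlap, but its log2 fold change of 0.19 (SE 0.13) had an adjusted p of 0.977. Next among the older copies were a B3 copy in the UTR of Mob1a, a Hippo pathway gene, at a density of 2610 (chr6:83342635-83342812, plus strand), and a B3A copy in the UTR of Paics, a purine synthesis gene, at 2430 (chr5:76967246-76967405, plus strand). A pair in the UTR of Klhl24 followed at 1090 each. Among the young copies the highest was the Rian copy printed above, at a density of 2180. It read 340, 360 and 380 CPM in WT and 354, 499, 440 and 392 CPM in Mutant (log2 fold change 0.23, SE 0.14, adjusted p = 0.977). The other 4 lay in exons of Rpl10a, Rbbp9, P3h3 and Thap12, at densities of 540 to 669. Over the 10 copies the adjusted p-values (edgeR) ran from 0.762 to 0.981. The B2_Mm1t copy in the UTR of P3h3, a collagen-modifying gene, had the lowest, at 88.2, 98.8 and 98.1 CPM in WT and 141, 123, 123 and 113 CPM in Mutant (chr6:124841174-124841363, minus strand; log2 fold change 0.4, SE 0.15).

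Genes that transcribe, silence or process SINE RNA were read from the FPKM table, in lists chosen with earlier results of these data known. With limma on log2(FPKM + 0.5) over 13988 genes, 1 gene passed an adjusted p of 0.05, or 0.00715%, and it was in none of the 3 lists. An unadjusted p under 0.05 was found for 2379 genes (17%). Of 30 RNA polymerase III genes, 6 had a positive and 24 a negative log2 fold change with a median of -0.12, beside 0.01 over all genes tested. In 9 of the 30 the unadjusted p was under 0.05, all lower in Mutant. The groups did not overlap, with Mutant lower, in 8 of the 30 and with Mutant higher in 0, which is 26.7% and 0.0% against 7.59% and 7.31% of all genes. Without WT replicate 3 the unadjusted p was under 0.05 in 8 of 30 (26.7%), against 23.6% of all genes. These 8 were all lower in Mutant, while the share of all genes counts both directions. Lower values without overlap were found in 33.3% against 17.1%, and higher ones in 0.0% against 15.6%. Leaving out each library gave list medians from -0.17 without WT replicate 2 to -0.08 without WT replicate 1.

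Polr3a, the largest subunit of the polymerase, read 10.2, 8.72 and 8.19 FPKM in WT and 7.16, 7.28, 7.5 and 6.81 FPKM in Mutant (log2 fold change -0.31, SE 0.09, adjusted p = 0.186 by limma). Gtf3c3, a subunit of the factor TFIIIC that binds the A and B boxes, read 35.9, 31.1 and 27.5 FPKM in WT and 26.0, 22.8, 25 and 23.7 FPKM in Mutant. Its log2 fold change was -0.36 (SE 0.09, adjusted p = 0.18 by limma), and -0.45 without WT replicate 3 (adjusted p = 0.0309 by limma). Without that library, 722 genes or 5.15% of those tested passed, and Gtf3c3 was the 1 gene of this list that did. Polr1c, shared with RNA polymerase I, Tbp, the TATA-binding protein, and Snapc1, of the complex that serves small nuclear RNA genes, were lower without overlap, by log2 fold changes of -0.22, -0.2 and -0.27 in that order (limma, adjusted p from 0.178 to 0.204). Polr1d, after Polr1c the most expressed of the list, stood at 111 ± 11.8 FPKM in WT and 116 ± 11.5 FPKM in Mutant.

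Of 17 silencing genes, 2 had a positive and 15 a negative log2 fold change, with a median of -0.11. The groups did not overlap, with Mutant lower, for 5 of them (29.4%, against 7.59% of all genes), and with Mutant higher for 1 (5.88%, against 7.31%). Without WT replicate 3 the lower share was 35.3%, against 17.1% of all genes. Leaving out each library gave list medians from -0.19 without WT replicate 2 to -0.07 without WT replicate 1. The 1 higher gene, named after its values were seen, was Uhrf1, which recruits the maintenance DNA methyltransferase, at 42.9 ± 3.23 FPKM in WT and 50.1 ± 4.13 FPKM in Mutant (log2 fold change 0.22, SE 0.08, adjusted p = 0.244 by limma). Hells, a chromatin remodeller needed for DNA methylation of repeats, read 112, 87.6 and 102 FPKM in WT and 68.3, 75.3, 83.3 and 76.7 FPKM in Mutant (log2 fold change -0.4, SE 0.1, adjusted p = 0.169 by limma). The H3K9 methyltransferases Suv39h2, Setdb1 and Ehmt2 differed by -0.26, -0.23 and -0.31 on the log2 scale (limma, adjusted p from 0.169 to 0.244). Kdm1a, a histone demethylase, had -0.28 (adjusted p = 0.225 by limma). It was the 1 gene of this list that passed without WT replicate 3 (-0.38, adjusted p = 0.0463 by limma). Without WT replicate 1, Ehmt2 and Kdm1a each had -0.16. Trim28 and Cbx5, the most expressed of the list, overlapped between groups, at 203 ± 10.9 and 108 ± 3.0 FPKM in Mutant against 223 ± 53.0 and 109 ± 1.45 FPKM in WT.

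Of 12 genes that bind or process SINE RNA, 3 had a positive and 9 a negative log2 fold change, with a median of -0.13. Leaving out each library gave list medians from -0.16 without Mutant replicate 1 to -0.04 without WT replicate 1. Dis3, a nuclease of the RNA exosome, read 20.2, 17.4 and 17.7 FPKM in WT and 14.8, 15, 14.9 and 14.1 FPKM in Mutant (log2 fold change -0.31, SE 0.07, adjusted p = 0.168 by limma). Ssb, the La protein that binds new RNA polymerase III transcripts, stood at 242 ± 15 FPKM in WT and 215 ± 8.32 FPKM in Mutant, without overlap (-0.17, adjusted p = 0.262 by limma). Srp14, of the signal recognition particle, stood at 193 ± 19.6 and 225 ± 20.5 FPKM with overlap. The germ cell markers, at -1.05 in the median over 8 genes, were lower too, and their part in the values of these lists was not tested.

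**Figure D5:**
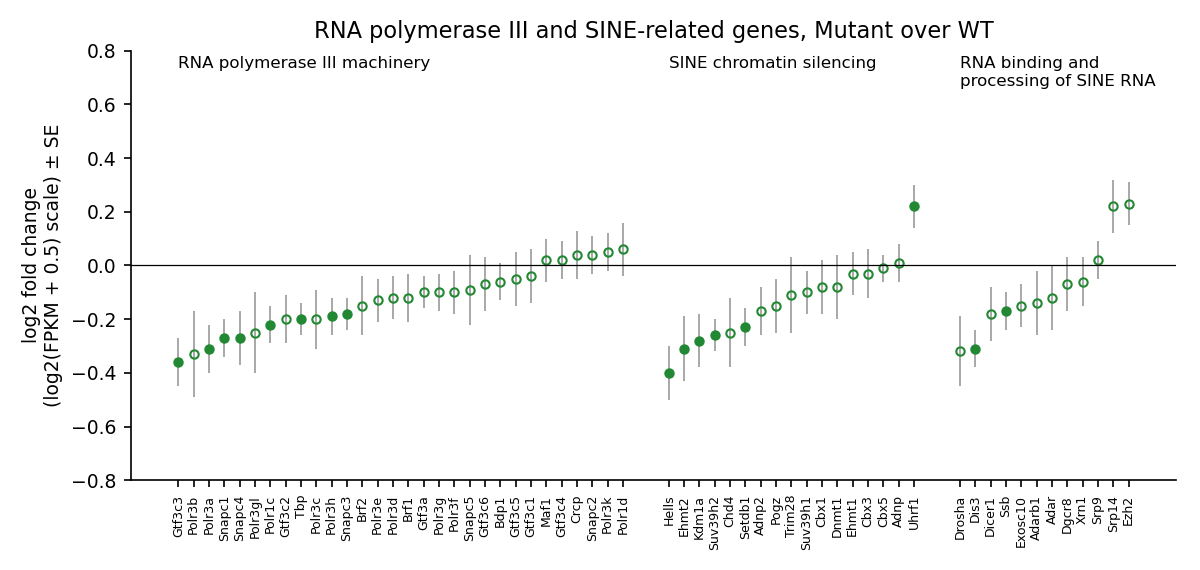
The log2 fold change (Mutant over WT, on the log2(FPKM + 0.5) scale) with its SE for the 59 genes of the 3 lists. Filled points are genes whose 2 groups do not overlap; most points lie below 0, and no gene passed an adjusted p of 0.05.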

How the data were processed

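Total RNA of E14.5 testes was rRNA-depleted and sequenced without poly-A selection. The authors aligned the reads to mm10 with TopHat 2.0.12 and counted uniquely mapped reads on each UCSC RepeatMasker locus with HTSeq; these read counts were deposited unnormalized. FPKM values per gene were computed by the authors with Cuffnorm. Columns were matched to sample titles by name. In the headers of both tables a missing tab fuses the names of WT replicate 3 and Mutant replicate 1, so columns were read by position, in the order of the header's names.

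Here, loci averaging at least 1 read per library were tested with edgeR 4.0.16 (R 4.3.3; quasi-likelihood test, TMM over all loci, adjusted p under 0.1), genes with a mean FPKM of at least 0.5 with limma 3.58.1 on log2(FPKM + 0.5) (adjusted p under 0.05), and single values with the two-sided exact permutation test; p-values are Benjamini-Hochberg adjusted over the whole table. The libraries are separate embryos' testes. Alternatives were DESeq2 1.42.0, other size factors, filters, pseudocounts, a replicate block and leaving out each library. Places come from GENCODE M21 (bedtools 2.31.1). No genome sequence was used here, so the printed copies are the most-read of each subfamily that an exon or promoter sequence covers. Named loci are the called ones and the 5 highest of each family; named genes are up to 5 per list with an unadjusted p under 0.05 and no overlap, those called, and the 2 most expressed. Scripts were tested on simulated data. The members and lists were chosen with earlier results of these data known. Depth limits single loci: most tested copies hold few reads.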

Additional observations from a re-analysis of the deposited data

Results flagged for a closer look

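In the 4 Mutant libraries, 99 values were screened for a library whose gap to the nearest other exceeded Dixon's 95% limit, and 6 of them (6.06%) did so, where chance gives about 1 in 20. Mutant replicate 3 stood above the other Mutant libraries in the summed level of exonic B2_Mm2 copies (6930 CPM against 5790 to 5940), of exonic B2 copies of all kinds (9410 CPM against 7770 to 8050), and of the B2_Mm2 copy in Thap12 (125 CPM against 87.3 to 92.0). Mutant replicate 4 stood above the others at the B3 copy in Nfkb1 (39.2 CPM against 24.2 to 26.6). Mutant replicate 1 was the only Mutant library with reads at the B3 copy in Atp2b2 (0.285 CPM, a single read) and at the B3A copy near Pou5f1 (1.71 CPM).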

How the results depend on the processing

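The count of member loci past the threshold depended on the processing. Against 18 (9 higher, 9 lower), there were 11 at an adjusted p of 0.05 (5 higher, 6 lower) and 11 with no filter (5 and 6). There were 20 with library size scaling only (8 and 12) and 1 with DESeq2 (1 and 0). Among loci of at least 10 reads there were 0 by edgeR (0 and 0). Of these, 468 had an unadjusted p under 0.05, a count without the share over all loci beside it. Leaving out each library gave 11 to 34 (4 to 14 higher, 5 to 20 lower), the most without WT replicate 3 and the fewest without WT replicate 2 or Mutant replicate 1. Deviations of same-numbered libraries had correlations of 0.03, -0.08 and 0.02 over loci and 0.2, -0.18 and 0.23 over genes. They differed in sign, and the main fits used no pairing. With the replicate number as a block 7 loci passed (3 and 4), 5 of them among the 18. The cause of these shifts was not tested, apart from the fewer loci or libraries that a filter or omission leaves.

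No subfamily or family total passed a threshold under any alternative, and all but B3A changed sign under at least 1 of them (B3A ran from 0.003 to 0.181). With library size only, the log2 difference was -0.017 for B2_Mm1a, -0.009 for B2_Mm1t, -0.037 for B2_Mm2, -0.005 for B3, -0.027 for the B2 total and -0.002 for the B3 total. Without exonic loci it was -0.001 for B2_Mm1t, -0.02 for B2_Mm2 and -0.014 for the B2 total. With DESeq2 size factors it was -0.008 for B2_Mm2 and -0.001 for the B2 total, and over the tested loci alone -0.004 for B2_Mm2. The shift was widest for copies outside annotated genes, at 0.151 for B3, 0.181 for B3A and 0.158 for the B3 total, against 0.028, 0.036 and 0.031 over all copies. Leaving out each library gave -0.066 to 0.08 for B2_Mm1a, -0.034 to 0.063 for B2_Mm1t, -0.052 to 0.032 for B2_Mm2, -0.001 to 0.046 for B3, -0.051 to 0.042 for the B2 total and 0.003 to 0.048 for the B3 total. The called genes went from 0 to 1 in the RNA polymerase III list and from 0 to 1 in the silencing list.

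Among single loci and genes, 465 values kept direction and call, 108 lost the call, 2 gained it and 12 changed sign. The sign changed for the B3 copy in Klhl24 (0.0 with the replicate block, and -0.13 to 0.07 when leaving out libraries), the B3A copy in Paics (-0.0 among loci of at least 10 reads, and -0.07 to 0.09), the B3A copy near Pou5f1 (-6.26 to 0.65), the B2_Mm2 copy in Thap12 (-0.18 to 0.04), Cbx5 (-0.03 to 0.0) and Trim28 (-0.26 to 0.07).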
